A study of Saccharomyces cerevisiae with 16 samples.

Results

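Respiration in budding yeast runs through the tricarboxylic acid (TCA) cycle of the mitochondrial matrix, which oxidises acetyl units, and through the respiratory chain of the inner membrane, which passes the electrons to oxygen and drives the ATP synthase. Yeast has no proton-pumping complex I. Its place is taken by NADH dehydrogenases of a simpler kind, which feed ubiquinone together with succinate dehydrogenase (complex II), and electrons then go through the cytochrome bc1 complex (complex III) and cytochrome c to cytochrome c oxidase (complex IV). Many of the nuclear genes for these proteins are activated by the Hap2/3/4/5 complex, whose activating subunit Hap4 is the regulated one, and some, such as CYC1, also by the heme-responsive factor Hap1.

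The genes described here are 55 nuclear genes of this system, taken from a list of names and matched to the array through their systematic names, of 6225 genes on the array. They are 10 enzyme subunits of the TCA cycle, 2 isoenzymes outside the mitochondrial cycle, 4 subunits of complex II, 3 NADH dehydrogenases, 2 cytochromes c, 9 subunits of complex III, 9 of complex IV, 11 of the ATP synthase and the 5 HAP regulators. They were chosen by name and role and not by a measured value, but with earlier results of these data known. Each was read by 1 probe, and all 55 were well above background in both colours on all 16 arrays, with a lowest red intensity of 287.

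The RNA came from the Z3EV-ROF1 strain, in which the promoter of ROF1, a gene for a putative transcription factor with a WOPR domain, was replaced by a promoter that the artificial factor Z3EV activates when β-estradiol is present. This haploid MATa strain in the S288C background carried URA3 at the ROF1 promoter, ura3∆0, his3∆1, can1∆::STE2pr-Sphis5 and lyp1∆, and the gene for Z3EV, driven by the ACT1 promoter, stood with natMX beside a repaired, functional HAP1. Cells of 2 phosphate-limited chemostat cultures, A and B, were sampled at 0 min and then at 5, 10, 15, 20, 30, 45 and 90 min after 1 µM β-estradiol, which makes 2 arrays for each of 8 times. On every array the strain was labelled red (Cy5) and the reference strain DBY12001 green (Cy3). Each value below is the log2 ratio of strain over reference, or a difference between such ratios, so that 1 on this scale is 2-fold.

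Red always carried the strain and green the reference. A gene's dye bias is therefore part of its ratio at 0 min but drops out of a change over time. Whether DBY12001 also has a repaired HAP1 is not given in the sources used here, and strain and construct cannot be told apart at 0 min. No strain without the construct was followed after β-estradiol, so induction of ROF1, the inducer itself and the time of sampling cannot be told apart either. Each culture was on a slide of its own. For changes over time, p-values measure only how these 2 cultures departed from each other between times, with their steady difference removed. At 0 min that difference was kept. P-values there measure the spread between the 2 cultures pooled over all times, not that at 0 min alone. That fit treated samples of the same culture at different times as independent, although the cultures' deviations correlated between times (median r 0.149, highest 0.402). The cells were measured in bulk, where fewer cells with a transcript and less transcript per cell cannot be told apart. ROF1 itself was below the intensity floor of 50 in both colours at 0 min, which gives a log2 ratio of 0, and stood between 3.36 and 4.54 at the 7 later times. The array of culture B at 10 min was the dimmest, with a median red intensity of 930.5, where the other 15 arrays had 1203.4 to 1417.

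Before induction, most respiratory genes were higher in the Z3EV-ROF1 strain than in the reference strain. Of the 55 genes, 42 were higher and 3 lower at an adjusted p under 0.05 (limma), while 25.9% of the 6046 genes tested were higher and 23.8% lower. Their median log2 ratio was 0.19, and 47 of 55 lay above 0 in both cultures, which 40.7% of all tested genes did. The median of all tested genes was 0. Genes with both colours under the floor are set to exactly 0, and the median of the 5567 genes never set to it was 0.0035. The differences were mostly small: CYC1 was the only respiratory gene that passed 2-fold, as 0.992% of all tested genes did in either direction.

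The groups differed in how far they stood from the reference. All 4 subunits of complex II and all 9 of complex III were higher, with medians of 0.41 and 0.37, and 8 of 9 subunits of complex IV, with a median of 0.39. The ATP synthase had 8 of 11 higher with a median of 0.17. The TCA cycle had 6 of 10 higher and 1 lower, with a median of 0.16. Differences between groups were not tested.

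**Figure D1:**
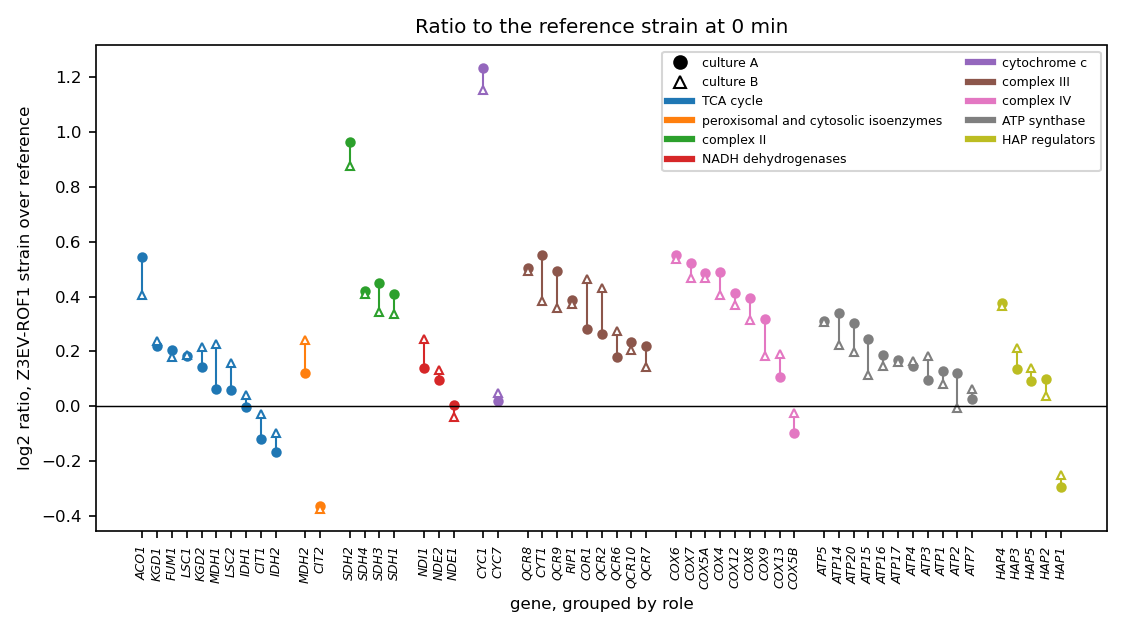
Log2 ratio of the Z3EV-ROF1 strain over the reference strain at 0 min for each of the 55 genes, grouped by role and coloured by group, with culture A as a filled circle and culture B as an open triangle joined by a line. CYC1 and SDH2 stand highest, and CIT2 and HAP1 lowest, in both cultures.

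CYC1 (YJR048W), which encodes the main aerobic form of cytochrome c, had log2 ratios at 0 min of 1.24 (culture A) and 1.15 (culture B). Its fitted ratio was 1.19 ± 0.03 (SE; 2.29-fold; adjusted p = 1.17e-08, limma). SDH2 (YLL041C), the iron-sulfur subunit of complex II, followed with 0.96 in culture A and 0.88 in culture B (1.89-fold; adjusted p = 4.83e-07, limma). COX6 (YHR051W), subunit VI of cytochrome c oxidase, had 0.55 and 0.54 in the same order, or 1.46-fold (adjusted p = 6.41e-08, limma). These 3 genes were the highest of the 55, and in each the cultures differed by less than 0.1. The next in order were QCR8 and COX7, subunits of complexes III and IV, at 0.50 and 0.49.

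At the low end stood CIT2 (YCR005C), the peroxisomal citrate synthase and a known target of the retrograde pathway, with -0.36 in culture A and -0.37 in culture B (0.775-fold; adjusted p = 3.5e-05, limma). HAP1 (YLR256W) had -0.30 and -0.25 in cultures A and B (0.827-fold; adjusted p = 0.000346, limma). HAP1 is also the gene beside which the Z3EV cassette was inserted, and the part played by that insertion was not tested. IDH2 (YOR136W), a subunit of the NAD-dependent isocitrate dehydrogenase, had -0.17 and -0.10 in cultures A and B (adjusted p = 0.0142, limma). Without culture A at 0 min its adjusted p was 0.187.

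After β-estradiol the respiratory genes went slightly up and then down. Their median change from 0 min in culture A was 0.05, 0.12, 0.13, 0.07, -0.06, -0.10 and -0.23 at 5, 10, 15, 20, 30, 45 and 90 min. Culture B gave 0.08, 0.15, 0.14, 0.04, -0.07, -0.12 and -0.21 at those times. Both cultures thus had their highest median at 10 or 15 min and crossed 0 between 20 and 30 min. The mean change of a gene was highest at 10 min for 16 of the 55 and at 15 min for 24, and it was lowest at 90 min for 43. These times were not counted over all tested genes. By the F test over the 7 later times 48 of 55 changed at an adjusted p under 0.05, against 50.6% of all tested genes.

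**Figure D2:**
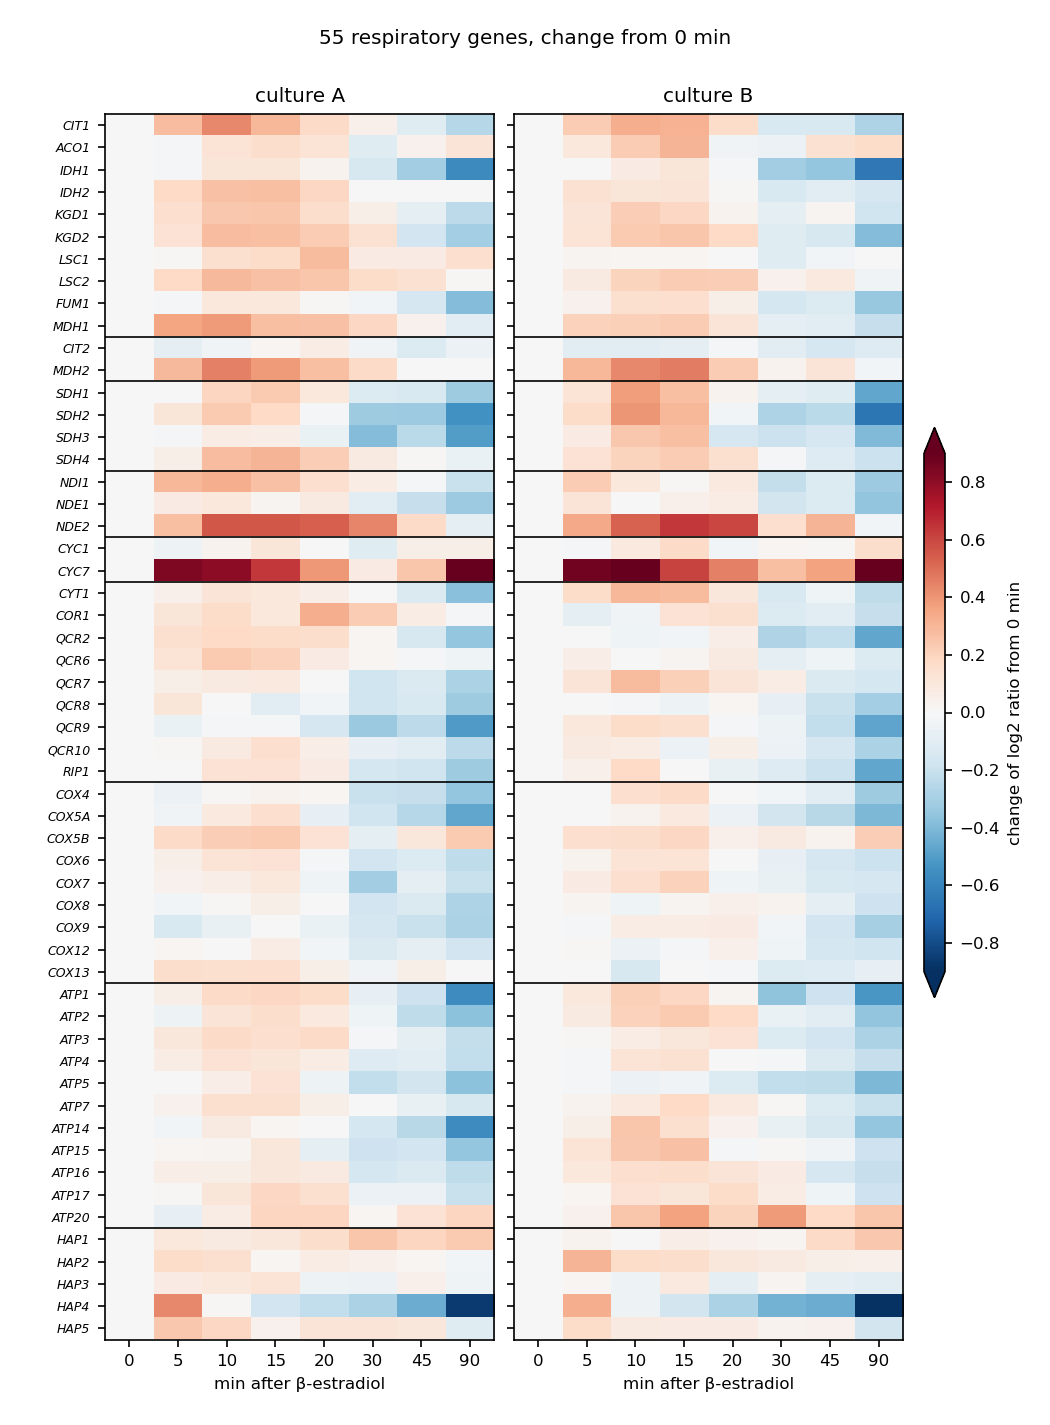
Change of the log2 ratio from 0 min for the 55 genes (rows, grouped by role, with lines between the groups) at the 8 times (columns), in culture A on the left and culture B on the right; red is higher and blue lower than at 0 min, and values beyond 0.9 take the end colours. Red prevails at 10 and 15 min and blue at 90 min. CYC7, COX5B, ATP20, HAP1, ACO1 and CYC1 are above 0 at 90 min in both cultures.

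**Figure D3:**
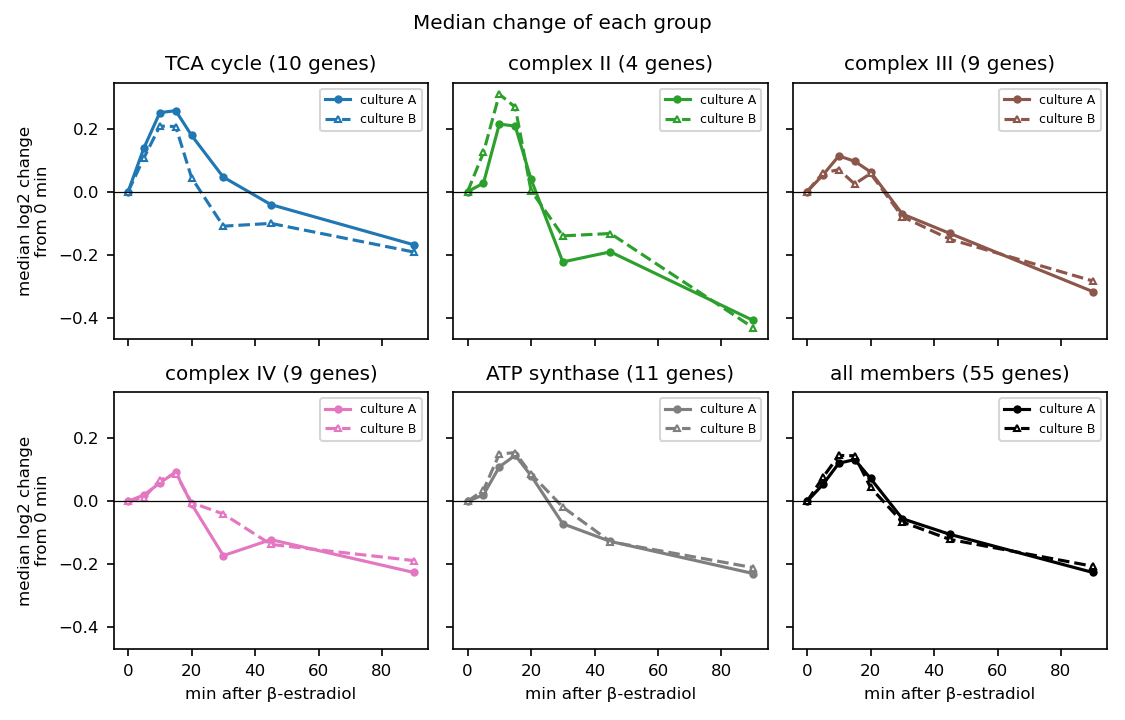
Median change of the log2 ratio from 0 min over the genes of 5 groups and over all 55, against the time after β-estradiol; the solid line with circles is culture A and the dashed line with triangles culture B. Every group lies above 0 at 10 and 15 min and below 0 at 90 min in both cultures.

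At 10 min, 22 of the 55 genes were higher than at 0 min and 0 were lower (limma, adjusted p under 0.05), where 11.6% of all tested genes were higher and 12.9% lower. In both cultures 42 of 55 lay above their value at 0 min, as did 33.2% of all tested genes. The median change was 0.13, and none passed 2-fold, as 0.0992% of all tested genes did. The higher genes were 6 of 10 TCA cycle genes, 3 of 4 of complex II, 6 of 11 of the ATP synthase, 2 of 9 of complex IV, 2 of 5 HAP regulators, and CYC7, NDE2 and MDH2. Of the 9 subunits of complex III, 0 passed, with changes between -0.0059 and 0.20. The count at 10 min depended on single arrays: dropping A or B at 0 min gave 12 or 13 higher genes, and dropping A or B at 10 min gave 9 or 14. With the red channel alone it was 1.

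CYC7 (YEL039C), the form of cytochrome c known for expression at low oxygen, had log2 ratios of 0.02, 0.86, 0.82, 0.66, 0.41, 0.09, 0.27 and 1.05 in culture A over the 8 times from 0 to 90 min. Culture B had 0.05, 0.92, 0.94, 0.66, 0.50, 0.32, 0.41 and 1.17. The gene was high at 5 and 10 min, was lower at 30 min than at any other time after induction, and was highest at 90 min, in both cultures. Against 0 min it was 0.85 ± 0.05 higher at 10 min (SE; 1.8-fold; adjusted p = 2.03e-05, limma) and 1.08 ± 0.05 higher at 90 min (2.11-fold; adjusted p = 1.28e-06, limma), but 0.17 at 30 min did not pass (adjusted p = 0.0567, limma). It was the only respiratory gene that changed by 2-fold at 90 min, a size that 1.37% of all tested genes reached. Its rise at 10 min was 0.65 with the red channel alone and did not pass (adjusted p = 0.065), while that at 90 min passed.

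NDE2 (YDL085W), an external NADH dehydrogenase that oxidises cytosolic NADH, had log2 ratios of 0.09, 0.36, 0.65, 0.65, 0.63, 0.53, 0.27 and 0.0029 in culture A. In culture B it had 0.13, 0.47, 0.66, 0.77, 0.73, 0.28, 0.44 and 0.10. It was highest from 10 to 20 min and back at its starting level at 90 min, and of the 55 genes it had the weakest red signal. The change at 10 min was 0.55 ± 0.09 (SE; 1.46-fold; adjusted p = 0.00294, limma), and that at 90 min -0.06 (adjusted p = 0.653, limma). With the red channel alone the change at 10 min was 0.29 and did not pass (adjusted p = 0.545).

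MDH2 (YOL126C), the cytosolic malate dehydrogenase of gluconeogenesis, had log2 ratios of 0.12, 0.41, 0.57, 0.50, 0.39, 0.30, 0.11 and 0.12 in culture A and of 0.24, 0.54, 0.67, 0.70, 0.47, 0.27, 0.35 and 0.21 in culture B. CIT1 (YNR001C), the mitochondrial citrate synthase that starts the cycle, had -0.12, 0.16, 0.31, 0.18, 0.05, -0.08, -0.23 and -0.38 in culture A and -0.03, 0.20, 0.30, 0.28, 0.14, -0.17, -0.16 and -0.31 in culture B. Both were higher at 10 min, MDH2 by 0.44 ± 0.05 and CIT1 by 0.38 ± 0.04 (SE; adjusted p = 0.000752 and 0.000551, limma). At 90 min MDH2 was close to its starting level, at -0.01 (adjusted p = 0.904), whereas CIT1 was lower by -0.27 (adjusted p = 0.00167). The calls of CIT1 at both times were lost with the red channel alone (adjusted p = 0.0854 at 10 min and 0.177 at 90 min), and that of MDH2 at 10 min was kept.

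By 30 min the direction had changed. Of the 55 genes, 0 were higher and 7 lower than at 0 min, where 5.52% and 5.94% of all tested genes were higher and lower, and 0.331% had changed by 2-fold, with none of the 55 among them. The 7 were IDH1, SDH2, SDH3, COX5A, COX6, ATP5 and HAP4. Over the 55 genes the cultures differed most at this time: 35 had the same sign in both, against 50 at 90 min. Across them the changes of A and B correlated at r = 0.321, against 0.951 at 90 min, with each point resting on the same 4 arrays. Across all tested genes r was 0.716 at 30 min and 0.943 at 90 min. For the TCA cycle the medians were 0.05 (A) and -0.11 (B). The count of lower genes was 13 when culture B at 30 min was left out. It was 4 without culture A at 30 min, and 3 or 2 without culture A or B at 0 min. With the red channel alone it was 0.

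At 90 min, 36 of the 55 genes were lower than at 0 min and 3 higher, where 20.0% of all tested genes were lower and 20.7% higher. In both cultures 44 of 55 lay below 0 min, as did 38.1% of all tested genes. The median change was -0.22, with a median of 0 over all tested genes. The fall was spread over the complexes: 10 of 11 subunits of the ATP synthase, 7 of 9 of complex III, 6 of 9 of complex IV, 3 of 4 of complex II and 5 of 10 TCA cycle genes were lower. With the red channel alone 5 genes were lower and 1 higher, and the median change was -0.20.

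HAP4 (YKL109W) had log2 ratios of 0.38, 0.81, 0.39, 0.20, 0.16, 0.09, -0.07 and -0.48 in culture A and of 0.37, 0.69, 0.32, 0.20, 0.08, -0.06, -0.08 and -0.52 in culture B. It was highest at 5 min and went down at every later time in both cultures. The value at 30 min was already below that at 0 min, by -0.35 ± 0.04 (SE; adjusted p = 9e-04, limma), and at 90 min it had fallen by 0.87 ± 0.04 (0.546-fold; adjusted p = 1.19e-06, limma), the largest fall of the 55 genes. With the red channel alone its changes were -0.30 at 30 min (adjusted p = 1) and -0.74 at 90 min (adjusted p = 0.0599), and both calls were lost. At 15 min the change of HAP4 from 0 min was -0.17 in both cultures. The median change of the 50 genes that are not HAP regulators was 0.15 in each. At 90 min the change of HAP4 was -0.86 and -0.89 in A and B, with -0.23 and -0.21 for that median. The difference between HAP4 and that median was not tested at either time, nor was any link between them.

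IDH1 (YNL037C), the other subunit of isocitrate dehydrogenase, had -0.0027, -0.01, 0.11, 0.11, 0.03, -0.15, -0.31 and -0.57 in culture A and 0.04, 0.04, 0.12, 0.15, 0.03, -0.28, -0.31 and -0.61 in culture B. It was lower at 90 min by -0.61 ± 0.04 (SE; 0.656-fold; adjusted p = 1.33e-05, limma). Its partner IDH2 had -0.17, 0.01, 0.10, 0.11, 0.02, -0.16, -0.16 and -0.17 in culture A and -0.10, 0.03, 0.01, 0.02, -0.09, -0.24, -0.20 and -0.25 in culture B, and at 90 min its change of -0.07 did not pass (adjusted p = 0.206, limma). The 2 subunits of the same enzyme therefore had different values at 90 min, a difference that was not tested.

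SDH2 had 0.96, 1.07, 1.20, 1.15, 0.95, 0.64, 0.63 and 0.42 in culture A and 0.88, 1.04, 1.27, 1.17, 0.85, 0.60, 0.63 and 0.22 in culture B. It was above 0 min at 10 min by 0.32 and below it at 90 min by -0.60 ± 0.05 (SE; 0.66-fold; adjusted p = 8.27e-05, limma), and yet stayed above the reference at every time. With the red channel alone its changes were 0.11 at 10 min (adjusted p = 0.886) and -0.59 at 90 min (adjusted p = 0.0981), and neither passed. ATP1 (YBL099W), the alpha subunit of the catalytic head of the ATP synthase, had 0.13, 0.18, 0.30, 0.32, 0.30, 0.06, -0.06 and -0.44 in culture A and 0.08, 0.18, 0.30, 0.27, 0.11, -0.28, -0.10 and -0.44 in culture B. Its change at 90 min was -0.54 ± 0.08 (SE; 0.687-fold; adjusted p = 0.001, limma). COX6 was lower at 90 min by -0.21 (adjusted p = 0.000618, limma), with 0.55, 0.61, 0.68, 0.68, 0.54, 0.38, 0.43 and 0.33 in culture A and 0.54, 0.57, 0.66, 0.66, 0.53, 0.47, 0.39 and 0.34 in culture B. The calls of ATP1 and COX6 at 90 min were lost with the red channel alone (adjusted p = 0.12 and 0.116).

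Besides the 3 higher genes, CYC7, HAP1 and COX5B, 16 did not pass the test at 90 min. Of the ATP synthase only ATP20, subunit g, was not called lower (0.22, adjusted p = 0.061, limma). In complex III these were COR1 and QCR6, and in complex IV, beside COX5B, they were COX7 and COX13. In the TCA cycle ACO1, the aconitase, and LSC1, a subunit of succinyl-CoA ligase, had mean changes above 0, 0.14 and 0.07, without passing the test. For LSC1 the cultures differed, with 0.15 in A and -0.0043 in B.

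From 10 to 90 min the difference was wider than from 0 min. At 90 min 44 of the 55 genes were lower than at 10 min and 2 higher, where 22.3% of all tested genes were lower and 26.3% higher, and the median difference was -0.36. The 2 higher genes were CYC7, by 0.23, and HAP1, by 0.20. Both calls were lost with the red channel alone (adjusted p = 0.0804 for CYC7 and 0.181 for HAP1, limma). That of HAP1 was also lost without either culture at 10 min and without culture B at 90 min. All 4 subunits of complex II, 8 of 9 of complex III, 7 of 9 of complex IV, 10 of 11 of the ATP synthase and 8 of 10 TCA cycle genes were lower. SDH2 had the largest difference, -0.92 (0.53-fold; adjusted p = 6.54e-06, limma).

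**Figure D4:**
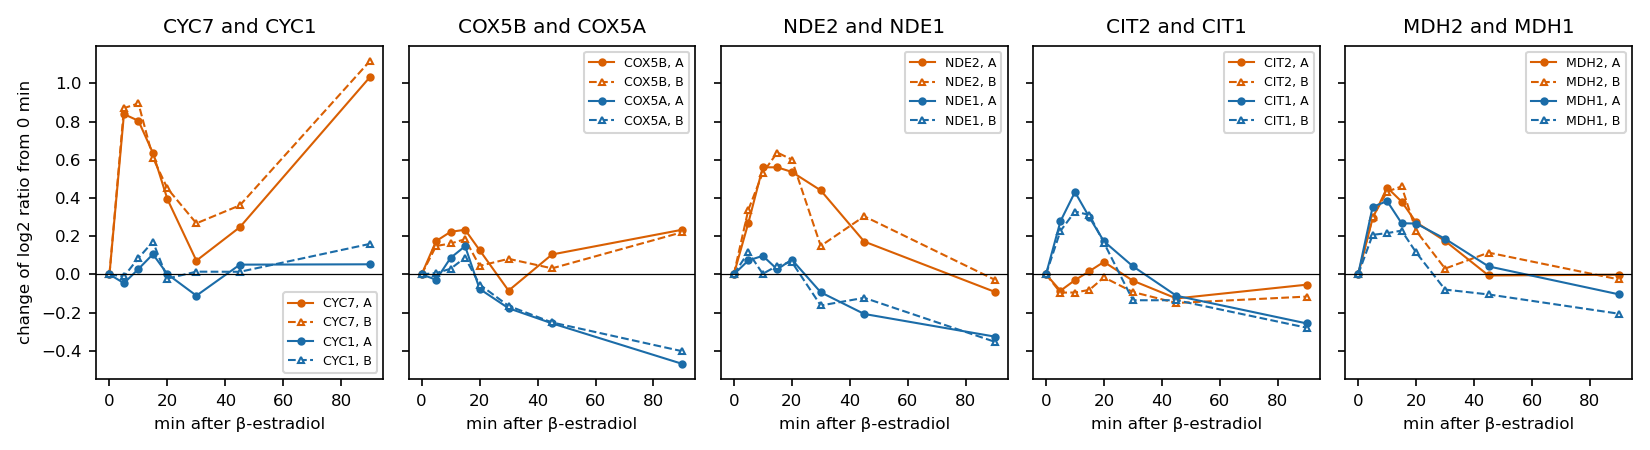
Change of the log2 ratio from 0 min against the time after β-estradiol for 5 pairs of isoenzymes, with solid lines and circles for culture A and dashed lines and triangles for culture B. CYC7 and COX5B end above 0 at 90 min, while COX5A ends below 0 and CYC1 stays within 0.2 of 0.

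The paired isoforms gave different time courses. CYC1 stayed near its high starting level, with 1.24, 1.19, 1.26, 1.34, 1.24, 1.12, 1.29 and 1.29 in culture A and 1.15, 1.14, 1.24, 1.33, 1.13, 1.17, 1.17 and 1.31 in culture B, while CYC7 changed as described above. At 90 min the change of CYC1 was 0.11 ± 0.04 (SE; adjusted p = 0.0669, limma), against 1.08 for CYC7. Subunit V of cytochrome c oxidase is encoded by COX5A, the aerobic form, or COX5B, known as the hypoxic form.

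COX5A (YNL052W) had 0.49, 0.46, 0.57, 0.63, 0.41, 0.31, 0.23 and 0.02 in culture A and 0.47, 0.48, 0.50, 0.56, 0.42, 0.30, 0.22 and 0.07 in culture B. COX5B (YIL111W) had -0.10, 0.08, 0.12, 0.14, 0.03, -0.18, 0.0060 and 0.14 in culture A and -0.02, 0.12, 0.14, 0.16, 0.02, 0.06, 0.0072 and 0.20 in culture B. At 90 min COX5A was lower by -0.44 ± 0.03 (SE; 0.739-fold; adjusted p = 1.67e-05, limma) and COX5B higher by 0.23 ± 0.05 (1.17-fold; adjusted p = 0.0106, limma). Both cultures showed these opposite signs. COX5A had -0.31 with the red channel alone and did not pass (adjusted p = 0.133). The call of COX5B was lost without culture A at 0 min, without either culture at 90 min and with the red channel alone, with an adjusted p of up to 0.375 over the alternatives.

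NDE1 (YMR145C), the other external NADH dehydrogenase, had 0.0046, 0.08, 0.10, 0.03, 0.08, -0.09, -0.20 and -0.32 in culture A and -0.04, 0.08, -0.04, 0.0064, 0.03, -0.20, -0.16 and -0.39 in culture B. It fell at 90 min by 0.34 ± 0.04 (SE; adjusted p = 0.000291, limma), whereas NDE2 had been above 0 min from 5 to 45 min. The call of NDE1 was lost with the red channel alone (adjusted p = 0.116). CIT2 moved little, with -0.36, -0.45, -0.39, -0.35, -0.30, -0.40, -0.49 and -0.42 in culture A and -0.37, -0.47, -0.47, -0.45, -0.39, -0.47, -0.52 and -0.49 in culture B. Its change at 90 min was -0.09 (adjusted p = 0.024, limma), a call that 9 of the alternatives lost.

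MDH1 (YKL085W), the mitochondrial malate dehydrogenase, had 0.06, 0.42, 0.45, 0.33, 0.33, 0.25, 0.11 and -0.04 in culture A and 0.23, 0.43, 0.44, 0.45, 0.34, 0.15, 0.12 and 0.02 in culture B. Like MDH2 it was higher at 10 min, by 0.30 ± 0.06 (SE; adjusted p = 0.00537, limma), a call lost with the red channel alone (adjusted p = 0.361). Its change at 90 min, -0.16, did not pass (adjusted p = 0.0543, limma). The differences between the members of a pair were not tested, and hybridisation of a probe to the partner's transcript was not tested either.

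**Figure D5:**
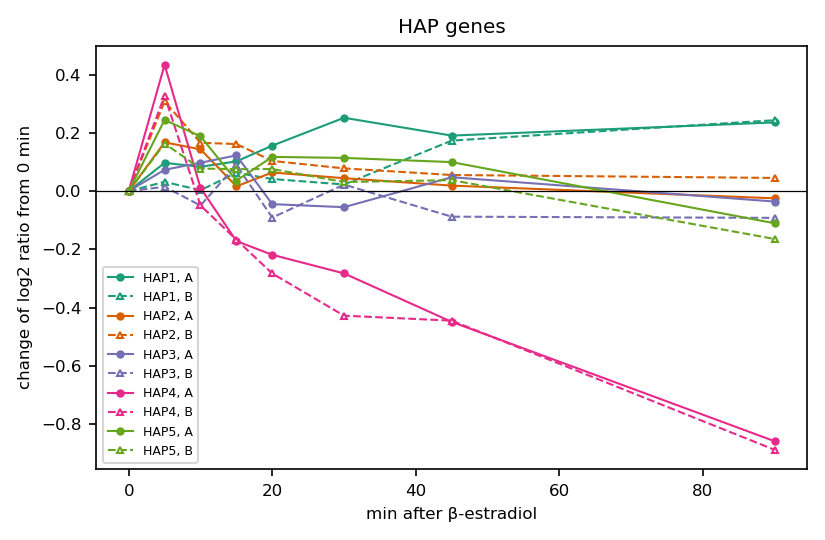
Change of the log2 ratio from 0 min of the 5 HAP genes against the time after β-estradiol, with solid lines and circles for culture A and dashed lines and triangles for culture B. HAP4 is above 0 at 5 min and ends at -0.86 and -0.89 in A and B, while the other 4 stay between -0.2 and 0.4.

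The regulators other than HAP4 changed less than HAP4 at 90 min. At 5 min all 5 HAP genes lay above their value at 0 min in both cultures. Their fitted changes then were 0.06 for HAP1, 0.24 for HAP2, 0.04 for HAP3, 0.38 for HAP4 and 0.20 for HAP5. HAP1 had -0.30, -0.20, -0.21, -0.19, -0.14, -0.04, -0.11 and -0.06 in culture A and -0.25, -0.22, -0.25, -0.19, -0.21, -0.23, -0.08 and -0.0071 in culture B. At 90 min it was higher by 0.24 ± 0.05 (SE; 1.18-fold; adjusted p = 0.00735, limma), although the F test over all times gave an adjusted p of 0.053. Its call at 90 min was lost when culture A at 0 min or culture B at 90 min was left out, and with the red channel alone (adjusted p up to 0.405).

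HAP2 (YGL237C) and HAP3 (YBL021C) are DNA-binding subunits of the complex, as is HAP5 (YOR358W). HAP2 had 0.10, 0.27, 0.24, 0.12, 0.16, 0.14, 0.12 and 0.08 in culture A and 0.04, 0.34, 0.20, 0.20, 0.14, 0.11, 0.09 and 0.08 in culture B. HAP3 had 0.14, 0.21, 0.23, 0.26, 0.09, 0.08, 0.18 and 0.10 in culture A and 0.21, 0.23, 0.16, 0.30, 0.12, 0.23, 0.12 and 0.12 in culture B. HAP2 was higher at 10 min by 0.15 (adjusted p = 0.0175, limma). That call was lost with the red channel alone, without culture A at 10 min and without culture B at 0 min. Neither HAP2 nor HAP3 passed the test at 90 min, with changes of 0.01 and -0.06 for HAP2 and HAP3. HAP5 had 0.09, 0.34, 0.28, 0.13, 0.21, 0.21, 0.19 and -0.02 in culture A and 0.14, 0.30, 0.22, 0.22, 0.22, 0.17, 0.18 and -0.02 in culture B. It was higher at 10 min by 0.13 (adjusted p = 0.0211, limma) and lower at 90 min by -0.14 (adjusted p = 0.0117, limma). The call at 90 min was lost with normexp and loess, with the red channel alone, without either culture at 90 min and without culture B at 0 min (adjusted p up to 0.671), and that at 10 min with the red channel alone and without culture A at 0 or 10 min.

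A further 107 genes around the respiratory system were looked up from fixed lists of assembly factors, carriers and cofactor synthesis. At 90 min 36 of the 107 were lower and 12 higher, with a median of -0.04, where 20.0% of all tested genes were lower and 20.7% higher. Nothing particular to any of these lists is read from its count. The assembly factors of complex IV had 8 of 22 lower and 0 higher, those of complexes II and III 5 of 14 lower and 0 higher, and those of the ATP synthase 5 of 15 lower and 0 higher. Pyruvate entry had 1 of 8 higher and 3 lower, the glyoxylate cycle with other isoenzymes 1 of 11 higher and 2 lower, and heme synthesis 2 of 8 higher and 3 lower. Of the carriers 3 of 9 were higher and 5 lower, and of other electron donors 1 of 4 was higher and 1 lower. At 10 min 24 of the 107 were higher and 4 lower, where 11.6% of all tested genes were higher and 12.9% lower. Higher then were 6 of 10 genes of ubiquinone synthesis, 5 of 14 assembly factors of complexes II and III, 4 of 11 of the glyoxylate list and 2 of 4 other electron donors. The carriers had 0 of 9 higher and 3 lower. No alternatives are given for the counts of these lists. At 90 min ubiquinone synthesis had 3 higher and 2 lower, near the shares of all tested genes.

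At 90 min MPC3 and HEM13 had moved further than any of the 55. MPC3, a subunit of the mitochondrial pyruvate carrier, was higher by 0.85 at 10 min and by 1.26 ± 0.05 at 90 min (SE; adjusted p = 8.49e-07, limma), while MPC1 had 0.09 (adjusted p = 0.199) and MPC2 was lower by -0.29 (adjusted p = 0.000402). HEM13, the coproporphyrinogen oxidase of heme synthesis and known as a hypoxic gene, was lower at 90 min by -1.44 ± 0.04 (SE; adjusted p = 1.17e-07, limma). In a list of 6 genes of the hypoxic and oxygen response, ANB1 and AAC3 were lower at 90 min, by -0.78 and -0.47, and AAC1 was higher, by 0.24. The others, ROX1, CYB5 and HMG2, did not pass, with 0.0024, -0.04 and 0.10, and the median of the list was -0.02. GUT2, the mitochondrial glycerol-3-phosphate dehydrogenase, was higher at 10 min by 0.45 and lower at 90 min by -0.99 (adjusted p = 5.27e-05, limma). No alternatives, such as the red channel alone, are given for the genes of this paragraph.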

How the data were processed

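The authors scanned 16 two-colour Agilent arrays and extracted processed red and green intensity per spot with Feature Extraction 12.0.1.1, background subtracted and dye normalized per the file headers. The deposited table of log2 ratios, made by the authors after flooring intensities at 50, equalled the ratios recomputed from the scanner files (0 spots differed by over 1e-04).

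The value of a gene was the mean log2 ratio over the spots of its probe (2 per probe; 3 to 183 outlier spots per array left out), and for 29 genes with several probes the brightest was used. Genes with red signal well above background on at least 2 arrays were tested, 6046 of 6225. Symbols came from a RefSeq table (R64), matched by systematic name. All changes were fitted with limma 3.58.1 in R 4.3.3 with a term for each time and a block for the culture (7 residual degrees of freedom, prior 0.89); the ratio at 0 min was fitted without the block. P-values were adjusted by Benjamini-Hochberg over all tested genes, and a call is an adjusted p under 0.05. The block follows from the design, since each culture was sampled at all 8 times; deviations of the cultures correlated between times at -0.0469 to 0.402 (median 0.149, 28 pairs of times). The fit was tested on simulated data. The number of arrays limits the precision.

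Named in full were the 3 highest and 3 lowest genes at 0 min, the up to 4 largest called rises and falls at 10 and at 90 min, 5 isoform pairs and the HAP genes, 20 in all. Other genes named in the text were picked once their values were known. The members, lists and this rule were chosen with earlier results of these data known. No sequences are shown. Figures were drawn with matplotlib 3.10.9.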

Additional observations from a re-analysis of the deposited data

How the results depend on the processing

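Among the alternatives, the red channel alone, quantile normalized without the reference, moved the counts most: 1 gene higher at 10 min (22 with the ratio), 0 lower at 30 min (7), 1 higher and 5 lower at 90 min (3 and 36), 0 higher and 14 lower at 90 against 10 min (2 and 44), and 6 over all times (48). The cause was not tested. Normexp with loess gave 5 higher at 90 min, and 2 higher at 30 min, as did the strict filter on dim probes and leaving out the 264 genes without residual spread, an alternative chosen after seeing the data (0 in the main analysis). The fit without the culture block gave 20 higher at 10 min, 4 higher and 36 lower at 90 min, and 45 over all times, and the block at 0 min gave 42 higher; it moved no count by over 1.5 times. Leaving out each array in turn gave 35 to 42 higher and 2 to 4 lower at 0 min, 9 to 29 higher and 0 lower at 10 min, 0 to 4 higher and 2 to 13 lower at 30 min, 1 to 5 higher and 28 to 38 lower at 90 min, 1 to 2 higher and 40 to 44 lower at 90 against 10 min, and 42 to 50 over all times. For higher genes at 90 min the count was 1 when culture A at 0 min or culture B at 90 min was dropped, and 5 without either 30 min array. For higher genes at 30 min it was 1 without either 15 min array, 2 without that of culture A at 30 min and 4 without that of culture B. For higher genes at 90 against 10 min it was 1 without either 10 min array or culture B at 90 min. No called change of the 20 genes named in full turned its direction under the alternatives run. Values of genes below the floor have no order, and none of the 55 was there.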
